A study of Mus musculus with 20 samples.

Results

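The genes described here encode the mitochondrial ribosome and the machinery that brings proteins into mitochondria. They were chosen by symbol: every clone annotated to a single gene whose symbol starts with Mrpl, Mrps, Timm or Tomm followed by a digit was taken, and clones of 1 gene were averaged within an array design. This gave 64 genes of 6970 measured in all, 48 of the mitochondrial ribosome and 16 of import. The first design held 40 of them (29 ribosome, 11 import) on 44 clones, and the second held 29 (21 ribosome, 8 import) on 33 clones. Only 5 genes, Mrpl23, Mrpl50, Tomm20, Tomm22 and Tomm70a, were on both.

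The mice belonged to 2 lines. Mice of the F line were selected for obesity. Fob3b mice differ from them at an obesity locus of the same name on chromosome 15, where they have the alleles of a lean line, and otherwise both share the F background. Total RNA of liver and of brown adipose tissue (BAT, the heat-producing fat depot) was pooled into 2 pools per line and tissue, and labelled RNA was hybridised in pairs to 20 spotted cDNA arrays. The labels name no age, sex or diet, nor how many animals made up a pool. Each Fob3b pool met the F pool of the same number in both dye orientations: 4 liver and 4 BAT arrays on the first design, 4 liver arrays and 2 BAT arrays of pool pair 1 on the second. The other first-design arrays were 2 of a liver pool against itself. Those of the second design were 2 that set unlike-numbered liver pools of the lines together and 2 that set both liver pools of the same line together.

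The values are log2 ratios of the dyes, relative to the median clone of the array, with the Fob3b line on top if red was divided by green. The sources leave the numerator open, so every sign below would turn if green was divided by red. A ratio has no level behind it here: it cannot show how strongly a gene is expressed, whether markers of a tissue are present, or whether fewer cells of a type or less RNA per cell lies behind a difference. Dye-swapped arrays of a pool pair count as 1 replicate, so n = 2 pool pairs per tissue and design, except for second-design BAT with 1. Errors are moderated standard errors (SE) of limma fitted across all genes of a design. A gene was called at a Benjamini-Hochberg adjusted p under 0.05. How animals were divided between pools was not found in the labels, so the tests measure only the spread between pool pairs. The paired spots of a clone correlated at 0.760 to 0.932 on the first design and at 0.636 to 0.865 on the second, and printing blocks held 12.6% to 74.1% and 6.61% to 46.8% of the variance between clones.

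Mitochondria keep their own ribosome, which makes the few hydrophobic respiratory-chain subunits encoded in mitochondrial DNA. All of its proteins are encoded in the nucleus, made in the cytosol and imported, as are nearly all other mitochondrial proteins. Import starts at the TOM complex of the outer membrane, where the receptors Tomm20, Tomm22 and Tomm70a recognise precursors and Tomm40 forms the channel. TIM complexes then act at the inner membrane: Timm17a, Timm17b, Timm21, Timm44 and Timm50 belong to the route of precursors with a presequence, Timm22 inserts carrier proteins, and the small proteins Timm8 and Timm13 escort hydrophobic precursors between the membranes. Brown fat cells are packed with mitochondria, and hepatocytes are rich in them.

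Of the 5 genes on both designs, the 3 TOM receptors were the ones below 0 in liver on each, and their promoter windows are shown for that reason. The sequences are those of RefSeq for GRCm38.p6, from 250 bases before to 50 bases after the start, 5′ to 3′ on the strand of the gene. Capitals mark matches to CCGGAAG, the core recognised by ETS factors such as GABP (NRF2), read on both strands. The windows are chr8:126945872-126946171 on the minus strand for Tomm20, chr15:79670618-79670917 on the plus strand for Tomm22 and chr16:57121464-57121763 on the plus strand for Tomm70a.
Tomm20: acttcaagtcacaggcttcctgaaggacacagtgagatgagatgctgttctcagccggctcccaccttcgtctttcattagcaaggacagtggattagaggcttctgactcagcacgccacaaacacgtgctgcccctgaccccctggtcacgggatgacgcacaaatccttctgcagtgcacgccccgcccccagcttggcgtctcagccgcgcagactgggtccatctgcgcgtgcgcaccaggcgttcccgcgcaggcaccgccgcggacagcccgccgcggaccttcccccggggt
Tomm22: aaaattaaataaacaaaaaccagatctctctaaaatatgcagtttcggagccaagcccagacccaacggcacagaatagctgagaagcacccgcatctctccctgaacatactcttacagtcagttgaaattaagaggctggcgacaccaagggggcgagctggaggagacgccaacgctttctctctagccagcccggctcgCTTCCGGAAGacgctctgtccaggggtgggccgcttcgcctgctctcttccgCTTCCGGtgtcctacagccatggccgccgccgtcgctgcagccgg
Tomm70a: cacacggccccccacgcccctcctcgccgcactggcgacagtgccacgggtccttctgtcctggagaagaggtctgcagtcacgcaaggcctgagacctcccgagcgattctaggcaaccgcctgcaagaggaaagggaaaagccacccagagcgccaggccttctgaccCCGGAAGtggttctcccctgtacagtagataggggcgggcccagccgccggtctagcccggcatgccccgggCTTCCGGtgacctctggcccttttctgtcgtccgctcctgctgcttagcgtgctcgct
The Tomm22 window held 3 matches, a pair of which overlap in a palindrome, the Tomm70a window held 2 and the Tomm20 window none. A RefSeq window was found for 57 of the 64 members, with 64 windows in all. The ETS core was in 29.7% of the member windows and 8.86% of all 32851 windows. Of the other cores linked to nuclear genes of mitochondria, GCATGCGC (NRF1) was in 9.38% of the member windows against 2.71% of all, and AAGATGG (YY1) in 20.3% against 6.34%, each on both strands, and overlaps between cores were not considered. By class, the ETS core was in 13 of 47 windows of ribosome genes and 6 of 17 of import genes. Counted by gene it was in 13 of 42 and 5 of 15, because overlapping windows of Tomm34 share a match. A match describes letters in the window and shows no binding.

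In liver on the second design, the question was whether the lines differed in these genes, and Tomm70a, the receptor that takes precursors handed over by cytosolic chaperones, was the 1 member of 29 called. It fell by 0.51 (SE 0.077, n = 2 pool pairs), a 1.43-fold difference, with an adjusted p of 0.0340. Its ratio was -0.97 with Fob3b in red and -0.067 with Fob3b in green for pool pair 1, then -0.74 and -0.26 for pool pair 2. All 4 arrays were thus on the negative side, and the dye orientations of a pool pair lay farther apart than the means of the pool pairs, -0.52 and -0.50. Over all genes 0.172% were called, 0.147% on the negative side. The call was lost when each printing block was centred (adjusted p 0.125), when arrays were scaled to a common spread (0.231), when each array was its own replicate (0.174) and when the array with the largest share of variance between blocks was left out (-0.29, 0.495), and the adjusted p ran from 0.0122 to 0.749 over all alternatives.

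The crossed-pool arrays of the second design read the same liver RNA in other combinations, and Tomm70a lay on the opposite side there. Its ratio was 0.49 for Fob3b pool 2 over F pool 1 and 0.15 for Fob3b pool 1 over F pool 2. With these arrays added as another pair the mean was -0.24, with an adjusted p of 0.749. Between pools of 1 line, pool 2 over pool 1, it was 0.68 in the F line and 0.40 in the Fob3b line. Each of these is 1 array with pool 2 in red and no dye swap, so pool and dye cannot be told apart there.

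The other receptors were below 0 on every second-design liver array without passing the test. Tomm20, the receptor for presequences, gave -0.36 and -0.24 for the first pool pair and -0.12 and -0.15 for the other, averaging -0.22 (SE 0.081), and had an adjusted p of 0.391. Tomm22, which joins the receptors to the channel, gave -0.12 and -0.29 for the first pool pair and -0.16 and -0.22 for the other, averaging -0.20 (SE 0.077), and had an adjusted p of 0.425. On the crossed arrays both had 1 value on each side, 0.28 and -0.16 for Tomm20 and 0.31 and -0.26 for Tomm22. Of the 8 import genes, 4 were negative on every array, these 3 and Timm17b, against 9.15% of all genes. None was positive on every array.

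**Figure D1:**
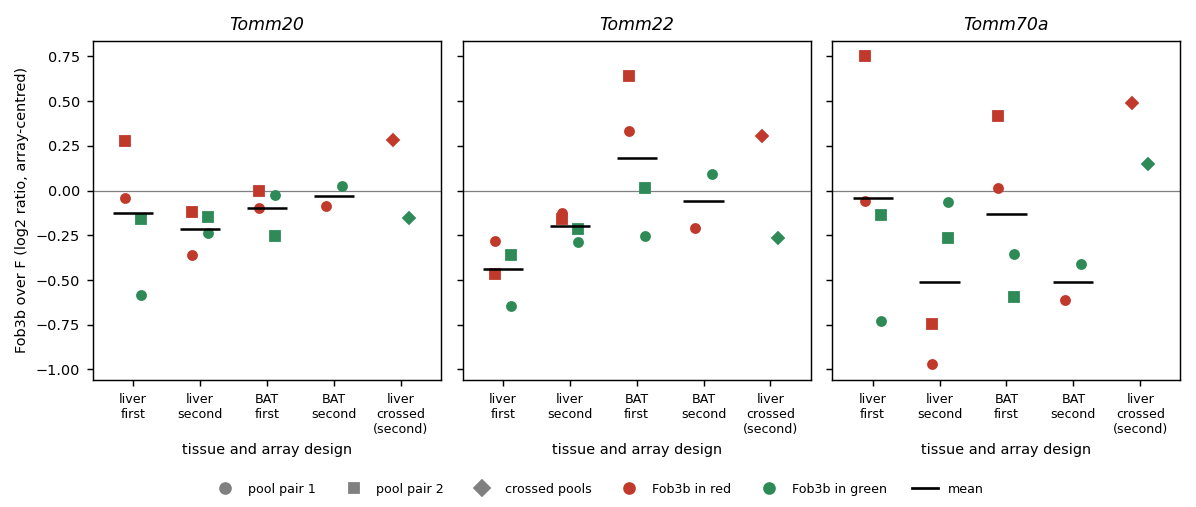
Log2 ratios of Fob3b over F for Tomm20, Tomm22 and Tomm70a on every array that compared the lines, by tissue and array design. Circles are pool pair 1, squares pool pair 2, diamonds the crossed pools, red and green the dye of the Fob3b RNA, and bars the mean. All 3 genes lie below 0 on the 4 second-design liver arrays, while the crossed arrays lie on both sides for Tomm20 and Tomm22 and above 0 for Tomm70a.

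On the first design the receptors were measured with other clones in RNA of the same pools. Tomm22 in liver was below 0 on all 4 arrays, reading -0.28 and -0.64 for pool pair 1 and -0.47 and -0.36 for pool pair 2, and its mean was -0.44 (SE 0.19, adjusted p 0.99998). Tomm20 had a liver mean of -0.13 (SE 0.19), the average of -0.31 for the first pool pair and 0.059 for the other. Tomm70a had -0.043 (SE 0.21) from -0.39 and 0.31, so its pool pairs were on opposite sides of 0. The second-design liver difference of Tomm70a was therefore not seen at the same size with the other clone. Tomm22 is 1 of 2 members on chromosome 15, the chromosome of the Fob3b locus. The other is Mrpl13, at -0.050 (SE 0.21) in liver and 0.11 (SE 0.21) in BAT. The bounds of the locus were not used here.

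In BAT the receptors had no shared side on the first design. Tomm20 was negative on all 4 first-design arrays, from -0.25 to -0.0023, with a mean of -0.095 (SE 0.19), and it had -0.086 and 0.024 on the second design. The sign of that first-design mean depends on centring: it was 0.015 with each printing block centred and 0.18 with no centring. Tomm22 read 0.33 and -0.25 for pool pair 1, then 0.64 and 0.012 for pool pair 2, averaging 0.18 (SE 0.19), and -0.21 and 0.091 on the second design. Tomm70a had -0.61 and -0.41 in the 1 BAT pool pair of the second design, a mean of -0.51 with no test, and a mean of -0.13 (SE 0.21) on the first.

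The channel and the remaining TOM genes had no shared side. Tomm40, the channel, was at 0.0034 (SE 0.21) in liver and 0.34 (SE 0.21) in BAT on the first design. The BAT value came from 0.67 in pool pair 2 and 0.0085 in pool pair 1. Tomm34, a cytosolic co-chaperone, had -0.061 (SE 0.23) in liver and 0.029 (SE 0.23) in BAT. Tomm5, a small subunit of the channel, was on the second design, with -0.049 (SE 0.079) in liver and 0.20 and 0.12 on the BAT arrays.

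Among the TIM genes, Timm8b in first-design liver had the largest difference of any member. It read -0.23 and -1.55 for pool pair 1, then -0.10 and -1.14 for pool pair 2, so all 4 arrays were negative and both arrays with Fob3b in green were far lower. Its mean was -0.75 (SE 0.19, adjusted p 0.99998), a 1.69-fold difference. On 1 of these arrays the paired spots of its clone read -1.87 and -0.41, and the clone does not pass a filter on discordant spots. In BAT the same clone was at 0.18 (SE 0.19). Timm17a, a core subunit of the presequence translocase whose clone does not pass that filter either, was also negative on all 4 liver arrays, from -0.64 to -0.021, with a mean of -0.31 (SE 0.26). In BAT its pool pairs stood at 0.62 and -0.66, the widest split between pool pairs of any member. Its paralog Timm17b on the second design was at -0.11 (SE 0.077) in liver, negative on all 4 arrays, and at -0.36 and -0.030 on the BAT arrays. Timm8a1, Timm8a2, Timm13 and Timm44 on the first design and Timm21, Timm22 and Timm50 on the second lay between -0.21 and 0.13 in either tissue.

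The mitochondrial ribosome genes of first-design liver were near the whole array. Their median was -0.050 against -0.022 for all genes, 12 of 29 were positive against 44.9% of all genes, and none was past 1.5-fold. Genes negative on all 4 arrays were Mrpl9 at -0.28 (SE 0.19), Mrpl58 at -0.22 (SE 0.19) and Mrps18a at -0.18 (SE 0.19), against 3.47% of all genes, and none was positive on all 4, against 4.85%. Mrpl58 is the peptidyl-tRNA hydrolase ICT1 built into the large subunit, and Mrpl9 is a structural protein of that subunit. When each printing block was centred, Mrpl9 was at -0.10, Mrpl58 at -0.022 and Mrps18a, with a change of sign, at 0.014. The pool pairs of Mrpl58 stood at -0.38 and -0.057, and those of Mrps18a at -0.10 and -0.27. Mrpl42 averaged -0.47 (SE 0.22) from pool pairs at -0.098 and -0.84. At the other end Mrpl19 and Mrpl21 had 0.25 (SE 0.19) and 0.23 (SE 0.21).

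No member was called in first-design liver by limma, nor was any other gene (0% of 3838). At an unadjusted p under 0.05 there were 2 members of 40, Timm8b and Tomm22, against 2.71% of all genes. The means of 27 of the 40 members were within 1 SE of 0. The pool pairs differed: the median of the 40 members was -0.21 with 8 positive for the first and 0.069 with 25 positive for the other, while the medians of all genes were -0.076 and 0.062. Hepatocyte genes split the same way on these arrays. The 5 of 20 listed that were measured had medians of -0.65 and 0.16 in the same order, with albumin (Alb) at -0.74 overall. Their part in the members' values was not tested.

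In first-design BAT more of the members lay above 0. The ribosome genes had a median of 0.12 against 0.032 for all genes, with 23 of 29 positive against 59.3%, and the large subunit (16 of 19) and the small subunit (7 of 10) were alike in this. Mrpl50 was highest at 0.36 (SE 0.21), reading 0.75 and 0.045 for pool pair 1, then 0.81 and -0.16 for pool pair 2. Mrps18b followed among ribosome genes with 0.30 (SE 0.19). Mrps36, at 0.26 (SE 0.20), carries a ribosomal name but is a component of the 2-oxoglutarate dehydrogenase complex. Mrpl23 was the 1 member positive on all 4 arrays, with 0.17, 0.13, 0.64 and 0.011 and a mean of 0.24 (SE 0.23), where 3.23% of all genes were. Tomm20 was the 1 member negative on all 4, where 3.02% were.

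The BAT values differed between the arrays of a pool pair. With Fob3b in red in pool pair 2 the median of the 29 ribosome genes was 0.54, with 24 positive, whereas with Fob3b in green in the same pool pair it was -0.16, with 7 positive. In pool pair 1 the medians were 0.17 and 0.0075. In pool pair 2 the dye orientations shared a sign for 6 of the 29 ribosome genes and for 28.1% of all genes. No member was called by limma, as 0% of all genes were, and none had an unadjusted p under 0.05 against 1.02% of all genes. The means of 32 of 40 members were within 1 SE of 0.

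**Figure D2:**
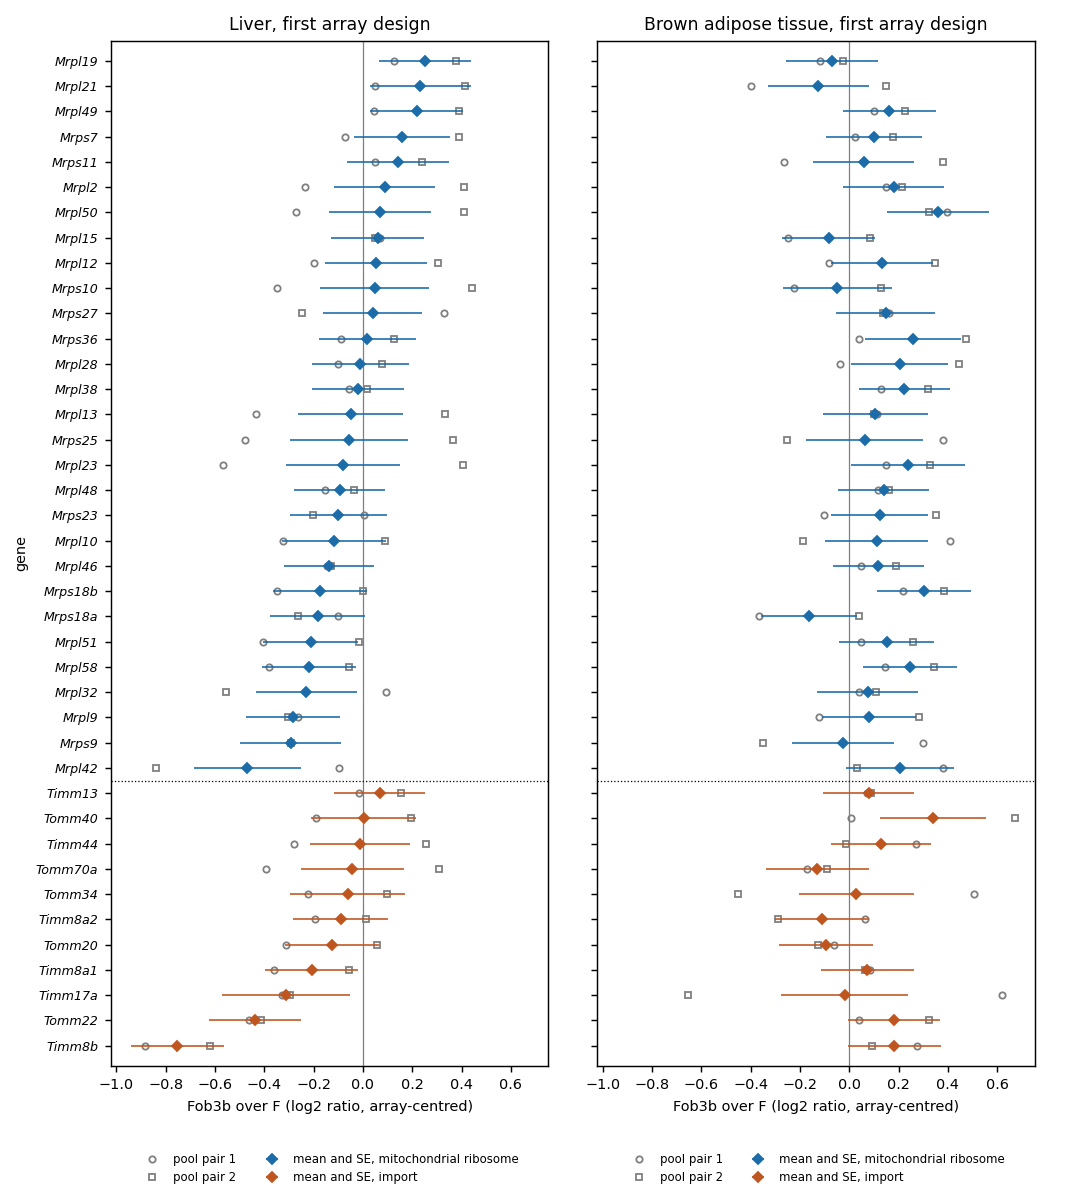
Log2 ratios of Fob3b over F for the 40 members on the first design, in liver (left) and brown adipose tissue (right). Diamonds with bars are the mean and its SE, open circles and squares the pool pairs, and the dotted line divides ribosome genes (above, blue) from import genes (below, orange). In liver Timm8b at -0.75 lies farthest from 0, and in brown adipose tissue 30 of 40 means lie above 0, most of them within 1 SE.

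Whether the line difference itself differed between tissues was tested as liver minus BAT in the fit of the first design. Of 40 members 31 were negative, 22 of 29 ribosome and 9 of 11 import genes, against 60.5% of all genes, and their median was -0.22 against -0.061. None was called, nor was any gene (0%), and 3 members had an unadjusted p under 0.05, where 3% of all genes did. These were Timm8b at -0.94 (SE 0.27), Tomm22 at -0.62 (SE 0.26) and Mrpl42 at -0.67 (SE 0.31), with an adjusted p of 0.9997 in each case. Timm8b had -0.75 in liver and 0.18 in BAT, Tomm22 -0.44 and 0.18, and Mrpl42 -0.47 and 0.21. On the positive side Mrpl21 at 0.36 (SE 0.29), Mrpl19 at 0.32 (SE 0.26) and Mrpl15 at 0.14 (SE 0.27) came first, and all 3 were negative with no centring.

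On the second design the errors were smaller. The SE of the members in liver had a median of 0.078, against 0.20 on the first design. The ratios themselves were smaller too: regardless of sign, the median liver mean of all genes was 0.065 against 0.118. The SD over the clones of an array was 0.155 to 0.302 against 0.318 to 0.631. Ribosome genes in liver had a median of 0.031 against 0.0040 for all genes, and 12 of 21 were positive against 51.4%. Large-subunit genes made up all 12, out of 18, and the 3 small-subunit genes Mrps15, Mrps17 and Mrps35 were between -0.070 and -0.0010. Mrpl30 at 0.18 (SE 0.078), Mrpl16 at 0.11 (SE 0.077), Mrpl52 at 0.11 (SE 0.079) and Mrpl23 at 0.071 (SE 0.077) were positive on all 4 arrays, as were 9.89% of all genes, and no ribosome gene was negative on all 4. Mrpl30, Mrpl16 and Mrpl52 were negative with no centring. Mrpl16 was also negative on both crossed arrays, at -0.092 and -0.044, where Mrpl30, Mrpl52 and Mrpl23 were positive on both. Mrpl11, a protein of the L7/L12 stalk base, was lowest at -0.29 (SE 0.077, adjusted p 0.154), reading -0.46 and -0.14 for pool pair 1, then -0.74 and 0.17 for pool pair 2. On the crossed arrays it was at 0.49 and 0.013. At an unadjusted p under 0.05 there were 5 members of 29, Tomm70a, Mrpl11, Tomm20, Tomm22 and Mrpl30, against 9.87% of all genes.

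The 1 BAT pool pair of the second design gives values with no test. The arrays carry a description that names the F line for both RNAs, while the channel labels name the Fob3b line in 1 channel, and the channel labels were used. Ribosome genes had a median of 0.094 against 0.028 for all genes, with 15 of 21 positive against 56.1%. Mrpl50 had 0.35 and 0.44, Mrpl16 0.28 and 0.42, and Mrpl45 0.22 and 0.44, the highest of the members. Mrpl11 with -0.78 and -0.24 and Tomm70a with -0.61 and -0.41 were the lowest, at -0.51 each. Both arrays were positive for 12 of 29 members and negative for 3, against 36.6% and 26.7% of all genes. No member was past 1.5-fold, where 1.52% of all genes were. Skeletal muscle genes, which can enter a BAT sample with adjoining muscle, were at 0.29 to 0.73 for the 3 of 17 measured here. The 2 measured in first-design BAT, Tpm2 and Actn3, were at -0.58 and -0.47. Tpm2 is in both sets: it had 0.73 here and -0.89 in pool pair 1 of first-design BAT, by label the same pool pair. The cause of this reversal was not tested. Brown adipocyte genes were at -0.15 to -0.057 for the 3 of 16 measured here, among them Prdm16 and Fabp3, and none of the 16 was measured on the first design. Their part in the members' values was not tested.

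**Figure D3:**
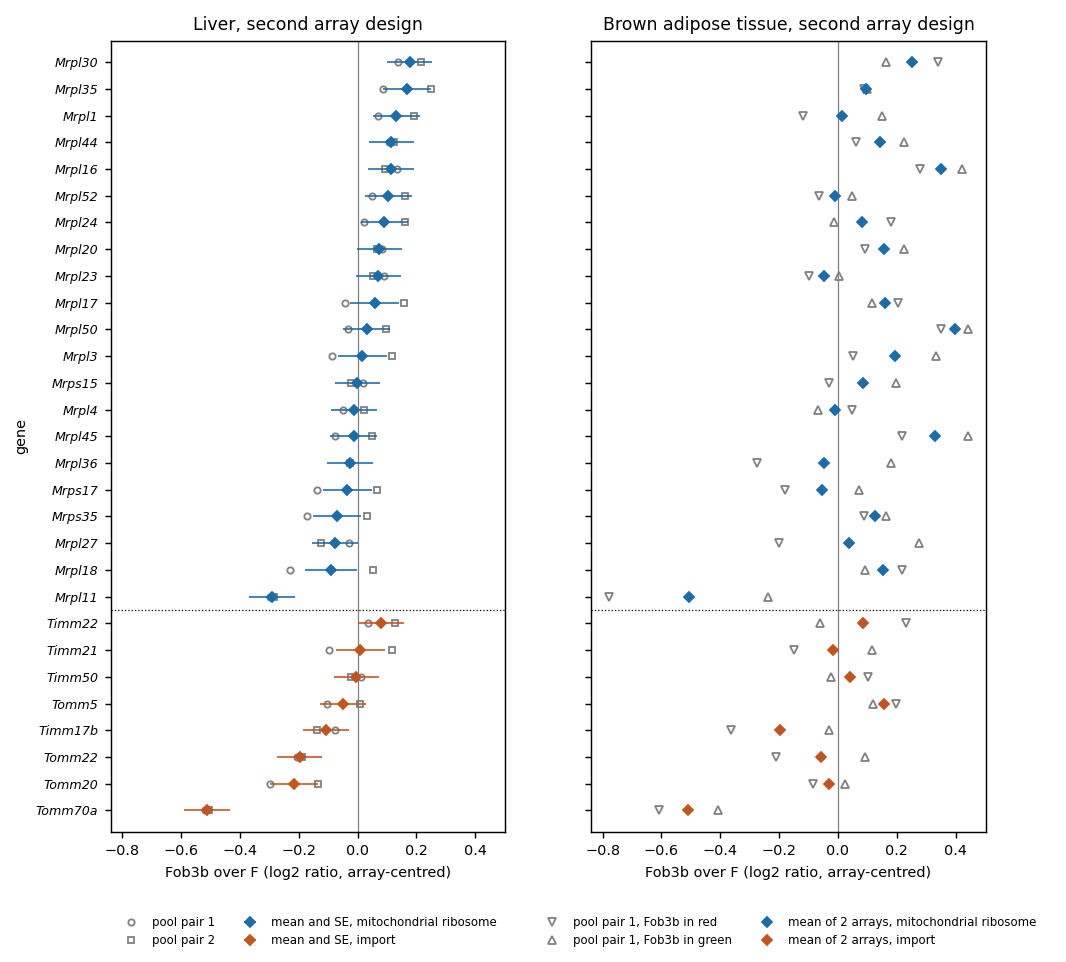
Log2 ratios of Fob3b over F for the 29 members on the second design. In liver (left) diamonds with bars are the mean and its SE and open symbols the pool pairs, and in brown adipose tissue (right) the open triangles are the 2 arrays of pool pair 1 and diamonds their mean. Tomm70a is lowest in liver at -0.51, and Tomm70a and Mrpl11 are lowest in brown adipose tissue.

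Mrpl23 and Mrpl50, the large-subunit genes on both designs, did not keep 1 pattern. Mrpl50 was on the positive side in BAT with either clone, at 0.36 (SE 0.21) with the first-design clone and 0.40 with the other. In liver it was at 0.070 (SE 0.21) and 0.031 (SE 0.079). Mrpl23 was positive on all 4 first-design BAT arrays but at -0.098 and 0.0050 on the second design. In liver it had -0.57 and 0.41 in the pool pairs of the first design and a mean of 0.071 on the second. Different clones of 1 gene on the same design also differed: in liver the paired clones of Timm13 were at -0.12 and 0.25, and those of Mrps17 at -0.12 and 0.050. In BAT those of Mrpl48 were at 0.071 and 0.21 and those of Tomm5 at 0.096 and 0.22.

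Set against each other by the medians of the means, ribosome genes lay above import genes in both tissues on both designs, but on the first design the direction turned with the arrays used. In first-design liver the medians were -0.050 and -0.091, in first-design BAT 0.12 and 0.073, in second-design liver 0.031 and -0.078 and in second-design BAT 0.094 and -0.024. The difference was 0.041, 0.051, 0.11 and 0.12. In first-design liver it was -0.014 without the array with the largest share of variance between blocks, and in first-design BAT it was -0.024 for pool pair 1 and 0.20 for pool pair 2. The import median of first-design BAT was -0.011 without pool pair 1 and -0.039 without the array with the largest share of variance between blocks. Import genes were positive in 2 of 11, 7 of 11, 2 of 8 and 3 of 8 cases. By array, the ribosome median was the higher on 6 of 8 direct arrays of the first design and on 6 of 6 of the second, where the difference ran from 0.017 to 0.20. Genes of a class are not replicates and the arrays share RNA pools, so no test was made of it.

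Arrays that did not compare the lines, or crossed the pools, gave class differences from -0.12 to 0.28. On the F pool hybridised against itself the ribosome median was 0.067 and the import median -0.21, a difference of 0.28, and on the Fob3b pool against itself, by channel label (its description names both lines), they were -0.10 and -0.094. Between pools of 1 line the differences were -0.067 (F) and -0.12 (Fob3b), and on the crossed arrays -0.066 and 0.15. The median size of a member's ratio, regardless of sign, was 0.22 and 0.15 on the self-self arrays, against 0.17 to 0.32 on the 4 direct liver arrays of that design.

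**Figure D4:**
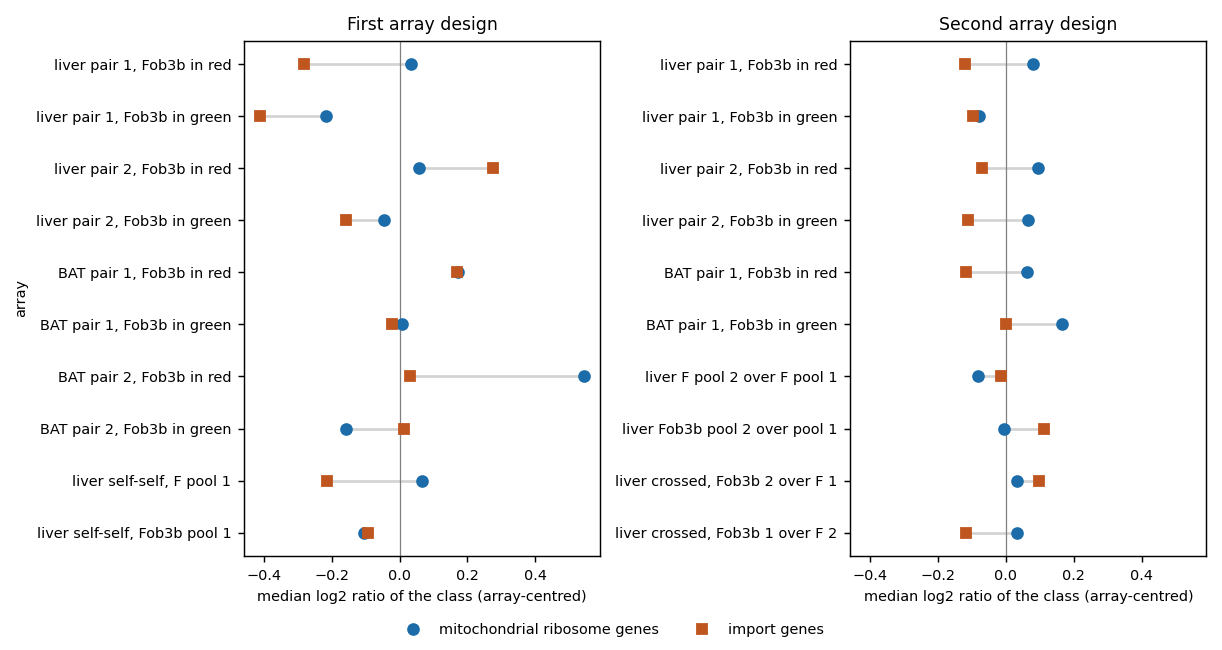
Median log2 ratio of the mitochondrial ribosome genes (blue circles) and of the import genes (orange squares) on each of the 20 arrays, by design, with a grey line joining the classes of an array. Direct arrays give Fob3b over F, and self-self and between-pool arrays give red over green. On the second design the ribosome median is the higher on all 6 direct arrays, by 0.017 to 0.20, and on the first design the self-self array of the F line shows a difference of 0.28.

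Other genes of the same pathways, from lists chosen with earlier results known, were compared by counts. No gene of these lists was called in any tested comparison. For the counts below, the shares of all genes that were positive were 44.9% in first-design liver and 59.3% in first-design BAT. They were 51.4% in second-design liver and 56.1% in second-design BAT. The medians of all genes were -0.022, 0.032, 0.0040 and 0.028 in the same order. Other genes of mitochondrial translation, such as elongation factors and tRNA synthetases, were positive for 4 of 15 in first-design liver (median -0.096) and 10 of 15 in BAT (0.10), and for 7 of 14 (0.0022) and 10 of 14 (0.13) on the second design. The initiation factor gene Mtif2 was lowest in second-design BAT, at -0.77, and had -0.19 (SE 0.11) in liver. Other genes of import and folding were positive for 3 of 8 in first-design liver (-0.084), 6 of 8 in BAT (0.28), 5 of 12 in second-design liver (-0.022) and 10 of 12 in BAT (0.13). Of these, the matrix chaperone genes Trap1 and Hspd1 had 0.40 (SE 0.20) and 0.33 (SE 0.23) in first-design BAT, and Hspa9, the motor of matrix import, had 0.41 in second-design BAT. Hsp90aa1, a cytosolic chaperone that delivers precursors to Tomm70a, had 0.38 (SE 0.094, adjusted p 0.136) in second-design liver and 0.68 in BAT. Both values lie on the side opposite to Tomm70a. Dnaja1 of the same list was on the side of Tomm70a in second-design liver, at -0.36 (SE 0.095, adjusted p 0.154). Hspa8, also listed, had -0.36 (SE 0.23) in first-design liver. Mitochondrial proteases were positive for 1 of 3 and 3 of 3 in first-design liver and BAT, and for 4 of 5 and 5 of 5 on the second design. Genes for the expression of mitochondrial DNA and for biogenesis were positive for 3 of 6 and 6 of 6, and 3 of 7 and 3 of 7. Pprc1, a coactivator of the PGC-1 family, was at -0.24 (SE 0.079) in second-design liver, and Mterf2 of the same list was at 0.23 (SE 0.077).

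The subunits of the respiratory chain and ATP synthase, some of whose partners the mitochondrial ribosome makes, had a median of -0.23 in first-design liver, with 3 of 27 positive, and 0.13 in BAT, with 27 of 27 positive and none positive on all 4 arrays. On the second design 30 of 38 were positive in liver (0.050) and 32 of 38 in BAT (0.13). Cytosolic ribosomal protein genes, the counterpart of the mitochondrial ribosome in the cytosol, were positive for 5 of 34 in first-design liver (-0.23) and 17 of 34 in BAT (-0.0035), and for 44 of 60 (0.080) and 35 of 60 (0.023) on the second design. Both lists, like the members, were lower in pool pair 1 than in pool pair 2 of first-design liver, at -0.53 and -0.011 for the respiratory chain and at -0.42 and 0.066 for cytosolic ribosomal proteins.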

How the data were processed

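The authors deposited 2 tables of 10 arrays that hold dye log ratios for each spot, read here as log2 ratios; the base, and the scanning, background and normalization steps that made them, are not stated per the labels or the file headers, and are not given in sources used here. Intensities were not used here, so dim probes could not be filtered. Each design had 17280 spots in 48 blocks. Paired spots of a clone were found from the platform annotation, giving 7680 clones, 4749 and 4855 of them with 1 gene. Symbols were updated through gene identifiers with the RefSeq table of GRCm38.p6.

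The median over clone spots was subtracted from an array, ratios were turned to Fob3b over F by channel label, and averages were taken over paired spots, then clones of a gene, then both dye orientations. The two-sided test was limma 3.58.1 (R 4.3.3) with a coefficient per tissue, adjusted over all genes of a design. It had 2 residual degrees of freedom for the first design and 1 for the second, and the SE leans on the spread of all genes. The precision of each tested value rests on 2 pool pairs per tissue. The limma fit was also run on simulated pool-pair ratios, which held no dye or printing-block effects. On the second design the test used the 1 BAT pool pair only in the shared fit. Crossed, between-pool and self-self arrays were described without a test. Named members were those called, up to 3 per class and side with 1 sign on every array, and those on both designs. Also named were 3 per side for liver minus BAT and 4 with the most discordant clones. For lists the rule picked the 2 genes per comparison with the largest absolute mean. Only some of these are given in the text, without a further rule. Others were named after their values were seen. Members, lists and rules were chosen with earlier results of these data known. Alternatives changed the centring, scaling, spots, clones and replicates, and 2 of them, centring on the median of clone means and leaving out the array with the largest share of variance between blocks, were chosen after seeing the data.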

Additional observations from a re-analysis of the deposited data

Results flagged for a closer look

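Of 20 sets of 4 arrays checked for a lone array (class medians and named genes), 1 stood apart. The median of the mitochondrial ribosome genes in second-design liver was -0.081 on the array of pool pair 1 with Fob3b in green, against 0.065 to 0.093 on the other 3 arrays. Chance alone flags about 1 in 20 such sets.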

How the results depend on the processing

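Of 231 tested values of named members under an alternative, 216 kept their direction and side of the threshold and 10 reversed. The other 5, all of Tomm70a in second-design liver, lost the call, and Tomm70a had the only call to lose. The rest kept their side by staying uncalled. Many values belong to members named for 1 sign on every array, which leaving out arrays could not turn. A further 12 values left out a pool pair, kept their direction and have no test. They belong to members named for 1 sign on every array of second-design liver, so their direction could not turn. The count of members called there was 0 with printing blocks centred, with the crossed arrays added, with each array as its own replicate, with arrays scaled, and without the array with the largest share of variance between blocks. Values with no centring carry the array's own median, which ran from -0.040 to 1.4 in first-design and from -0.82 to 0.31 in second-design arrays. With no centring, the ribosome and import medians were 0.40 and 0.34 in first-design BAT, -0.34 and -0.44 in second-design liver and -0.26 and -0.38 in second-design BAT, and 6 members were positive in first-design liver, 0 in second-design liver and 1 in second-design BAT. Reversed with no centring were liver minus BAT of Mrpl15 (-0.22), Mrpl19 (-0.037) and Mrpl21 (-0.0024), second-design liver of Mrpl16 (-0.25), Mrpl30 (-0.19) and Mrpl52 (-0.26), and Tomm20 in first-design BAT (0.18). With printing blocks centred, Tomm20 was at 0.015 there and Mrps18a in first-design liver at 0.014.

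Leaving out a pool pair gave liver minus BAT of Mrpl15 from -0.026 to 0.31, ribosome minus import from 0.020 to 0.16 in first-design liver and from -0.024 to 0.20 in first-design BAT, 8 to 25 members positive in first-design liver, and import medians from -0.011 to 0.071 in first-design BAT and from -0.10 to -0.078 in second-design liver. On the second design this left no residual degrees of freedom. Without the array with the largest share of variance between blocks, the import medians were -0.039 in first-design BAT and -0.12 in second-design liver, and ribosome minus import was -0.014 in first-design liver, 0.23 in first-design BAT, 0.11 in second-design liver and 0.16 in second-design BAT. The last was 0.097 with blocks centred, 0.094 with arrays scaled and 0.083 with the first spot of each clone, and the import median of second-design liver with arrays scaled was -0.099. The cause of these changes was not tested.

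With the pool number as a replicate block, 0 members were called for liver minus BAT, as without it. The labels do not tie pools of the same number across tissues, and deviations of same-numbered pools correlated at 0.372 over 3838 genes and 0.0063 over the 40 members. All genes called in second-design liver numbered 7, against 0 with blocks centred, crossed arrays added, each array as its own replicate or arrays scaled, 67 with no centring, 40 without the array with the largest share of variance between blocks, 11 with clone-mean centring and 29 with clones tested singly. Without intensities, dim clones could not be told from bright ones.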

Other observations

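Clones annotated to several genes were kept out of the members. On the first design, a clone of Mrps25 and Nr2c2 was at 0.013 in liver and 0.034 in BAT, beside -0.057 and 0.063 for the clone of Mrps25 alone. A clone of Timm23, the pore of the presequence translocase, shared with Gm10273, was at -0.00031 in liver and 0.063 in BAT. On the second design, clones of Mrps25 and Nr2c2 were at 0.062 and -0.058 in liver and, in the same order, at 0.29 and 0.068 in BAT. A clone of Mrps6 shared with Slc5a3 was at -0.12 in liver and -0.11 in BAT on that design.

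Markers of other cell types were thinly covered. The macrophage gene Lyz2 was at -0.44 (SE 0.19) in first-design liver and -0.014 (SE 0.19) in BAT, and C1qa and C1qb were between -0.053 and 0.018 in second-design liver and BAT. Of the red blood cell genes, Hbb-b1 was at -0.23 (SE 0.085) and Alas2 at -0.057 (SE 0.11) in second-design liver, with 0.0081 and -0.29 in BAT. Their part in the members' values was not tested.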
